A study of Mus musculus with 12 samples.

Results

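FGFR1 HiChIP of neuronal committed cells (NCC) was compared with Hi-C of the same cells, which takes 4 of the 12 samples of the series, 2 biological replicates of each assay. The question was in which regions of the autosomes, and at which contact distances, the antibody against FGFR1 held more or fewer read pairs than the chromatin contacts of the cells as a whole. The libraries were chosen by their labels, and all read pairs with both ends on chromosomes 1 to 19 were used. The series follows E14Tg2A mouse embryonic stem cells (ESC), grown on gelatin with LIF (100 U/mL), and NCC made from them with 1 μM retinoic acid in medium without LIF for 48 h. Hi-C, HiChIP with an FGFR1 antibody (ab10646) and HiChIP with a CTCF antibody (ab70303) were done in both. All libraries were made from formaldehyde-fixed cells of this single line with tn5 transposase and PCR. RNA is not among these measurements, so the markers of NCC could not be checked here, and a HiChIP library with a control antibody was not analysed here.

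Hi-C joins DNA ends that lie close together in fixed nuclei and sequences them as read pairs, and HiChIP adds an immunoprecipitation that retains the pairs bound, directly or indirectly, by the target of the antibody. FGFR1 is a receptor tyrosine kinase for fibroblast growth factors that is also found in the nucleus, where it binds the co-activator CBP and nuclear receptors, among them retinoid and Nr4a receptors. Retinoic acid acts through RAR and RXR receptors, which bind pairs of half-sites in DNA, and the DR5 element, in which a spacer of 5 bases parts both half-sites, is a well-known form. Retinoic acid induces Cyp26a1, which degrades it, and the anterior Hox genes, and it lowers the pluripotency factors.

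DR5 elements are shown for some of the retinoic acid genes near which such an element was found, because retinoid receptors, nuclear partners of FGFR1, bind such elements, and the bins that hold them are compared below. The motif was searched on both strands of GRCm38 (mm10), which gave 8418 elements on the autosomes. An element was found in 3.83% of the 10 kb bins tested below. Of 21 genes searched within 10 kb of the start site, 10 had an element. Capitals mark the half-sites and lower case the spacer, written 5′ to 3′ on the strand given.
Hoxb1, chr11:96372776-96372792, plus strand, 7032 bases downstream of the start site and outside the gene: GGTTCAtagagAGTTCA
Cyp26a1, chr19:37697776-37697792, minus strand, outside the gene at base -14 from the start site: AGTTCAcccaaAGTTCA
Cyp26a1, chr19:37695909-37695925, plus strand, outside the gene at base -1881 from the start site: GGGTCAcaggcGGGTCA
Rarg, chr15:102250817-102250833, minus strand, 6692 bases downstream of the start site and inside the gene: GGTTCAaagtgAGGTCA
Aldh1a1, chr19:20501480-20501496, plus strand, 8773 bases downstream of the start site and inside the gene: GGGTCAcaattAGGTCA

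The NCC FGFR1 HiChIP library holds 3177422 autosomal read pairs and the NCC Hi-C library 21142644. The authors merged the replicates, so each assay is a single pooled library, no spread between replicates can be given, and no test was made. The intervals given are 95% intervals of counting error alone. Read pairs amplified by PCR without molecular identifiers are not independent molecules, so the intervals are too narrow. Each read pair joins 2 anchors, the restriction fragments merged by the authors' tool, which were called separately in each library. FGFR1 anchors number 223499, cover 27.2% of the autosomes and have a median length of 2413 bp. Hi-C anchors number 243579, cover 37.3% and have a median length of 2923 bp. Of the FGFR1 anchors, 73.7% overlap a Hi-C anchor. Each end of a read pair was placed at the midpoint of its anchor, and the value given throughout is the share of ends, or of read pairs, in FGFR1 HiChIP over the share in Hi-C, as a log2 ratio.

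In NCC, FGFR1 HiChIP was shifted from GC-rich, gene-dense chromatin to AT-rich, gene-poor chromatin relative to Hi-C. Bins of 500 kb were ordered by GC content and cut into 10 classes of equal size. In the class with the lowest GC content (mean 36.6%, 0.992 protein-coding start sites per bin), FGFR1 HiChIP held 6.28% of its ends and Hi-C 1.25%, a log2 ratio of 2.33 (2.32 to 2.33). In the class with the highest GC content (mean 48.9%, 11.5 start sites per bin), it held 15.1% against 27.5%, a log2 ratio of -0.87. The ratio fell at each step between these classes and crossed 0 between mean GC contents of 42.2% and 43.3%. Over 4712 bins with ends in both libraries, Spearman's rho between the log2 ratio and GC content was -0.93, and it was -0.62 with the number of start sites. These points share both libraries, and neighbouring bins are not independent.

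Hi-C changed more along this axis than FGFR1 HiChIP, with its anchors and ends concentrated in GC-rich bins. Anchors of Hi-C covered 64.5 kb of a 500 kb bin in the lowest class and 302 kb in the highest. FGFR1 anchors covered 120.7 kb and 162 kb, so their coverage changed less along the axis. Within the covered sequence, FGFR1 HiChIP had 6.94 ends per kb in the lowest class and 12.4 in the highest, and Hi-C had 17.2 and 80.6. When both libraries were restricted to read pairs between anchors that overlap an anchor of the other library, the log2 ratio still ran from 1.27 to -0.64.

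**Figure D1:**
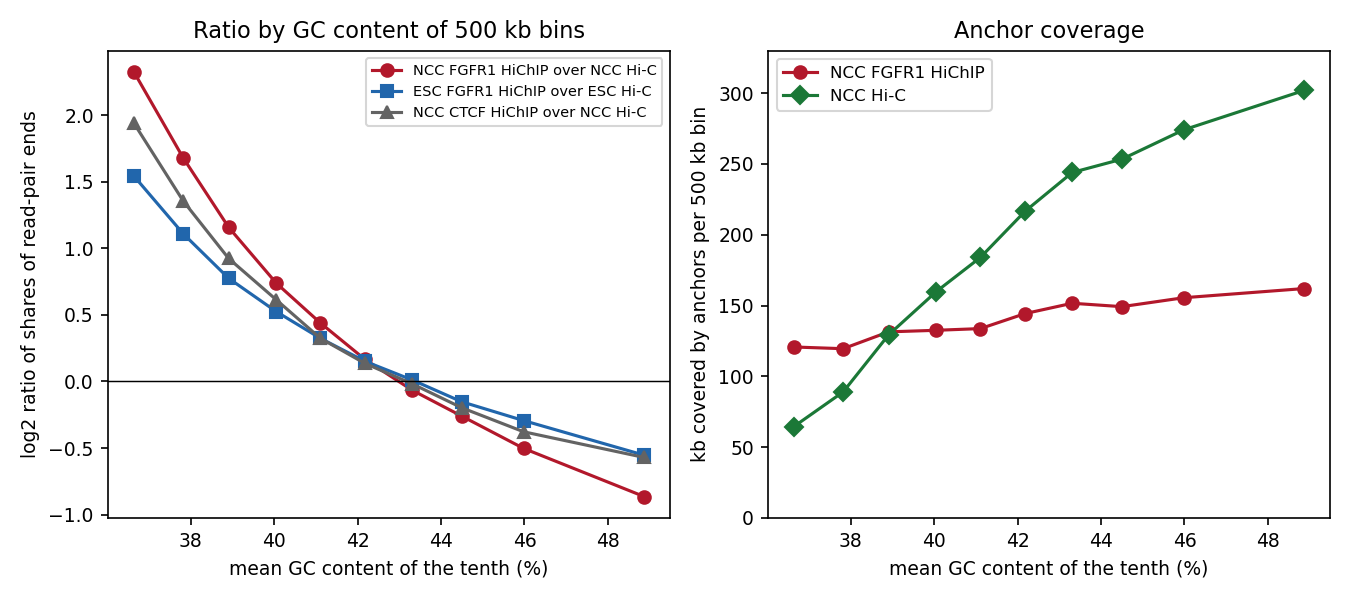
Left, log2 ratio of the share of read-pair ends (vertical axis) for 10 classes of 500 kb bins ordered by GC content (horizontal axis, %), for NCC FGFR1 HiChIP, ESC FGFR1 HiChIP and NCC CTCF HiChIP over Hi-C of the same cells. Right, kb of a 500 kb bin covered by anchors. The ratio of NCC FGFR1 HiChIP falls from 2.33 to -0.87, and Hi-C coverage rises from 64.5 to 302 kb.

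A fall along GC content was not limited to the FGFR1 antibody or to NCC. ESC FGFR1 HiChIP over ESC Hi-C, which shares no library with the NCC comparison, ran from 1.54 in the lowest class to -0.55 in the highest. NCC CTCF HiChIP over NCC Hi-C ran from 1.94 to -0.57, with the same Hi-C library as the denominator. The NCC FGFR1 range was the widest of the 3. With 1 pooled library each and no control antibody, an effect of the immunoprecipitation in general and one of FGFR1 cannot be told apart. For this reason values are also given relative to bins of the same GC content, in which the ratio of a bin is divided by the pooled ratio of its GC stratum (50 strata of bins).

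Single regions departed from their GC stratum in both directions. A bin was called enriched or depleted where its ratio was at least 2 or at most 0.5 and its interval lay past 1, with at least 100 ends in both libraries together. Among 4765 tested 500 kb bins, 1386 were enriched (29.1%) and 159 depleted (3.34%). Relative to GC strata these numbers were 403 (8.46%) and 74 (1.55%). The 1386 bins enriched by share of ends, without GC strata, had a median GC content of 37.9% and 1.46 start sites on average. Of them, 55.7% held a CTCF consensus site. The 159 depleted by share of ends had a GC content of 49.5% and 10.6 start sites, and 98.1% held such a site. Over all tested bins these values were 41.7%, 4.31 and 79.3%.

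The strongest enrichment relative to GC strata was found in bins where Hi-C had almost no anchors. These bins were chosen after their values were seen, by their interval bounds. In a bin that overlaps no protein-coding gene, at chr8:102000001-102500000, FGFR1 HiChIP had 951 ends on 142.2 kb of anchors and Hi-C 34 ends on 2.23 kb, a log2 ratio of 7.54, or 5.72 relative to its GC stratum. ESC were at 1.82 and 0.69 there, and CTCF HiChIP of NCC, over the same Hi-C ends, at 6.92 and 5.44. A bin at chr6:18500001-19000000, which overlaps Cttnbp2, Lsm8 and Ankrd7, had 596 FGFR1 ends against 46, a log2 ratio of 6.43, or 5.36 relative to GC, with CTCF HiChIP at 4.54 and 3.70. A bin inside Erbb4, a neuregulin receptor gene, at chr1:68500001-69000000, had 1099 against 44, a log2 ratio of 7.38, or 4.95 relative to GC. ESC were at 1.86 and 0.15 in this bin, and NCC CTCF HiChIP, with 168 ends, at 6.26 and 4.24, so that high ratios over the few Hi-C ends were measured with both antibodies. The Hi-C library had less than 10 kb of anchors in 163 of 4770 bins of 500 kb, and there FGFR1 anchors covered 57.3 kb on average. ESC Hi-C covered 33.1 kb on average in these 163 bins, and 72 of them were also under 10 kb in ESC Hi-C. The high ratios thus went with low anchor coverage in NCC Hi-C, whose part in them was not tested.

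At 50 kb, 5727 bins were enriched relative to GC strata (13.3%) and 4901 depleted (11.4%), of 43091 tested. The bin with the highest lower bound lies inside Nrg1, at chr8:31850001-31900000. Nrg1 encodes neuregulin, a ligand of Erbb receptors. The bin had 231 FGFR1 ends and 17 Hi-C ends, the latter on 3.14 kb of anchors, which gave a log2 ratio of 6.5, or 5.61 relative to GC. ESC were at 3.52 and 2.95, and NCC CTCF HiChIP had 0 ends there. A bin inside Ctnna2, which encodes the neuronal alpha-catenin, had 171 ends against 23, a log2 ratio of 5.63, or 4.72 relative to GC, and CTCF HiChIP was at 5.17 and 4.50. Among depleted bins, the one that overlaps Zfp385c and Dhx58 at chr11:100650001-100700000 had 16 FGFR1 ends and 3010 Hi-C ends, and one that overlaps Elp4 had 15 and 597. These bins too were chosen after their values were seen. In both, FGFR1 anchors covered less than 2 kb.

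At 10 kb, 21934 of 136653 tested bins were enriched (16.1%) and 42672 depleted (31.2%). Of the enriched bins, 278 held 0 Hi-C ends. Of the depleted bins, 22059 (51.7%) held 0 FGFR1 ends, and 94.6% of the bins at 0 had FGFR1 ends in a bin next to them. All 10 enriched bins with the highest lower bounds, among them bins at Glo1, Capzb, Ddc, Ece1 and Rarg, held 0 Hi-C midpoints although Hi-C anchors overlapped them. At Ski, a co-repressor gene, the bin of the start site had 204 FGFR1 ends and 0 Hi-C ends. Another bin in the gene had 0 and 2859, and the 50 kb bin of the start site had 355 and 5256, a log2 ratio of -1.15. The 10 depleted bins with the lowest upper bounds, at Ski, Mettl27, Hip1r, Prkcz, Samm50, Dnah8, Gtf2ird1, at Acacb and Foxn4, and at 2 places outside protein-coding genes, likewise held 0 FGFR1 midpoints. The same held for the genes whose start-site bins had the most extreme bounds: 12 of the highest, among them Glp1r, Pou3f1, Pcdh1, Tlx3, Arid1a and Cyp26c1, had 0 Hi-C ends, and 12 of the lowest, among them Mettl27, P3h3, Atxn7l3 and Matk, had 0 FGFR1 ends. With no minimum of ends, 71243 bins were enriched and 56040 depleted of 208278, so the balance of the calls depended on the minimum. With the minimum kept and ends divided over all bins that an anchor overlaps, by overlapping bases, the numbers called were alike (19385 enriched and 40576 depleted of 144858). For single genes, the 50 kb bin is therefore given beside most 10 kb values.

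NCC and ESC had similar ratios over 500 kb bins, and were less alike relative to GC strata. Over 4733 bins tested in both, Spearman's rho between the NCC and ESC log2 ratios was 0.83, and 0.24 relative to GC strata. In ESC, 19.4% of the tested 500 kb bins were enriched and 0.568% depleted. The bins enriched in both cell types numbered 769, which is 56.4% of those enriched in NCC and 84.5% of those enriched in ESC. Only 7 bins were depleted in both, 4.52% of the 155 NCC and 30.4% of the 23 ESC calls among these bins. Relative to GC strata, 6.16% of the tested ESC bins were enriched and 2.17% depleted. By this measure 112 bins were enriched in both, 29.1% of the NCC and 39.0% of the ESC calls. Those depleted in both numbered 2, 2.86% and 2.06% of the calls, near the depleted share of all tested bins. At 50 kb rho was 0.48, and 0.20 relative to GC strata. The points are the same genome bins with the same base composition in both cell types, so the correlations are a description.

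**Figure D2:**
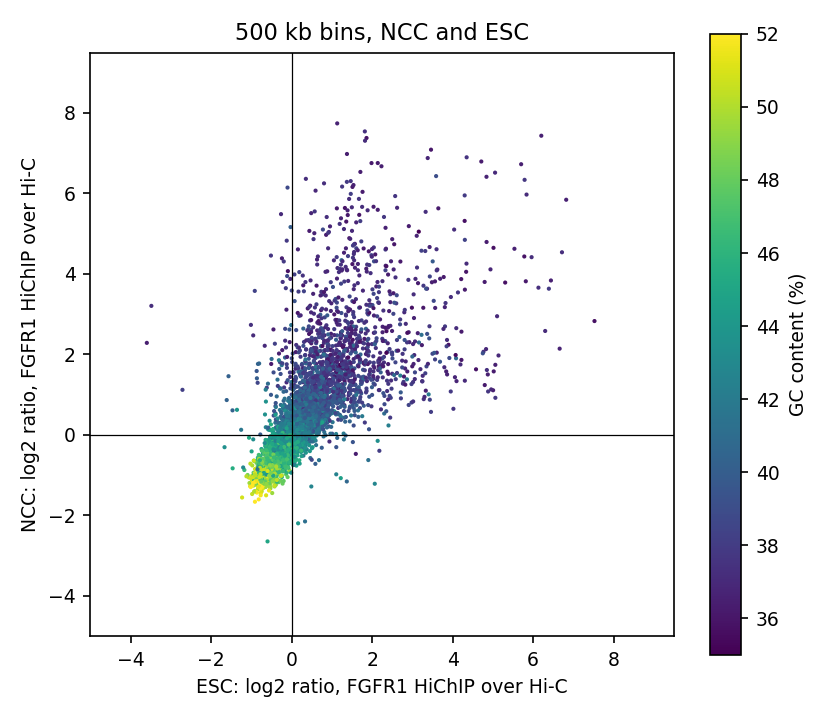
Log2 ratio of the share of read-pair ends, FGFR1 HiChIP over Hi-C, in NCC (vertical axis) against ESC (horizontal axis) for 4733 bins of 500 kb; each point is a bin and its colour is the GC content (%). Most GC-rich bins lie below 0 in both cell types, and most AT-rich bins lie above 0 in both.

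Contact distances differed less than regions. FGFR1 HiChIP held 22.8% of its read pairs at 500 kb or more on the same chromosome and Hi-C 19.4%, a log2 ratio of 0.23. Its share between 20 and 200 kb was 22.0% against 24.0%, a log2 ratio of -0.13. The ratio was highest at 1 to 2 mb, with 3.58% against 2.87%, a log2 ratio of 0.32 (0.31 to 0.33). All 19 autosomes had a higher share in FGFR1 HiChIP in each class from 500 kb to 50 mb, and none did in the classes from 20 to 200 kb. At 1 to 2 mb the log2 ratio of single autosomes ran from 0.12 to 0.44. Read pairs inside a single anchor were fewer in FGFR1 HiChIP, with 17.4% against 19.8%, a log2 ratio of -0.19, on each of the 19 autosomes. Pairs under 20 kb did not differ beyond counting error (16.1% in both). Inter-chromosomal pairs made up 12.4% against 11.5%, a log2 ratio of 0.11.

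**Figure D3:**
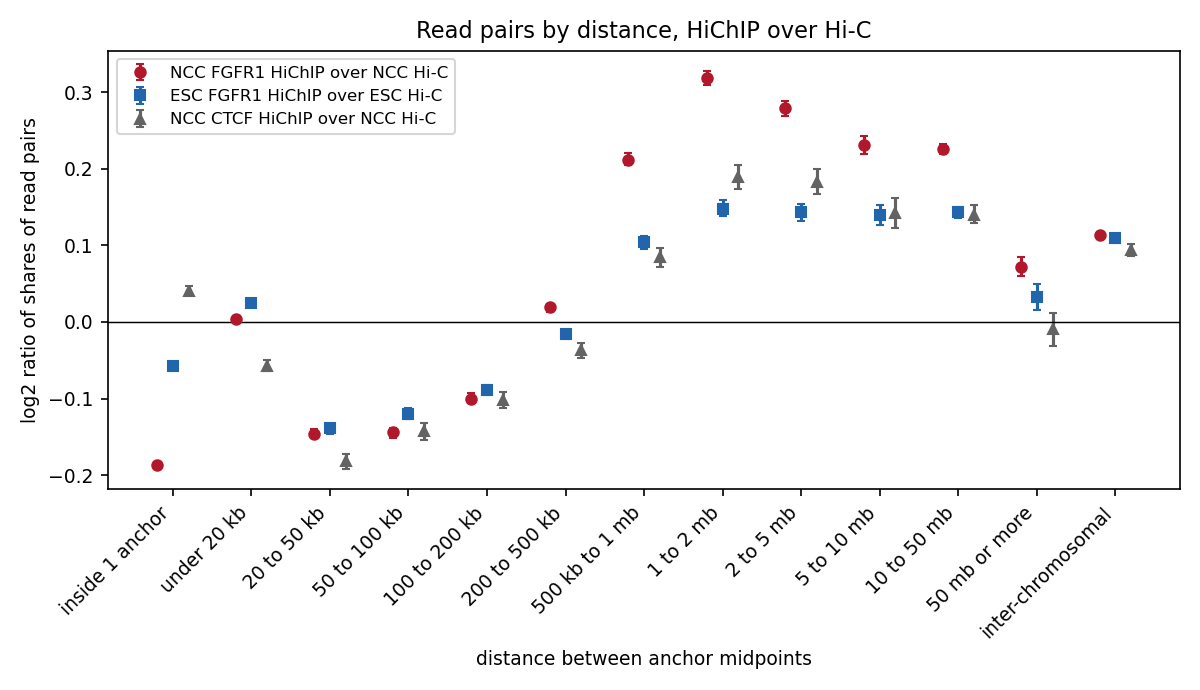
Log2 ratio of the share of read pairs (vertical axis) in classes of the distance between anchor midpoints (horizontal axis) for NCC FGFR1 HiChIP, ESC FGFR1 HiChIP and NCC CTCF HiChIP over Hi-C of the same cells; bars are 95% intervals of counting error. The NCC FGFR1 points lie below 0 from 20 to 200 kb and reach 0.32 at 1 to 2 mb.

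The excess at long distances was larger for FGFR1 in NCC than in the other comparisons. At 500 kb or more, ESC FGFR1 over ESC Hi-C had a log2 ratio of 0.13 and NCC CTCF over NCC Hi-C also 0.13, against 0.23. The excess was smaller once base composition was matched. With Hi-C read pairs weighted to the GC content of the FGFR1 read pairs, the ratio at 1 to 2 mb was 0.17 and that at 20 to 50 kb -0.05, where it was -0.15 without the weights. Interactions seen once make up 85.1% of the FGFR1 and 80.6% of the Hi-C interactions. Among interactions with a score of at least 2, the log2 ratio was -1.10 at 500 kb or more. Inside a single anchor it was 0.38, and for inter-chromosomal pairs 0.98. A score of 2 is a stricter cut in the shallower FGFR1 library (3177422 against 21142644 read pairs). These values therefore cannot show on which interactions the excess rests.

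In the enriched 500 kb bins, contacts between different anchors up to 200 kb apart took a larger share of FGFR1 HiChIP than of Hi-C, whereas pairs inside a single anchor took a smaller one. Read pairs with an end there were under 20 kb apart in 11.9% of FGFR1 and 8.75% of Hi-C pairs, a log2 ratio of 0.44, and 20 to 200 kb apart in 16.0% against 11.8%, also 0.44. Pairs inside a single anchor were 13.1% against 17.5%, a log2 ratio of -0.42, the direction of the whole library. Pairs at 500 kb or more were at -0.04, and inter-chromosomal pairs, 15.9% against 19.6%, at -0.30. In the depleted bins, the log2 ratio was -0.25 at 20 to 200 kb, 0.17 at 500 kb or more and 0.41 for inter-chromosomal pairs. The bins were chosen by their share of ends, and the same read pairs are counted in both. A pair with both ends in a bin counts there with each end, and a pair that leaves the bin with a single end. The choice of bins was therefore not independent of distance, and no conclusion is drawn from these shares.

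Contacts that join promoters were the class most reduced in NCC FGFR1 HiChIP, as they were in ESC FGFR1 HiChIP and NCC CTCF HiChIP. Anchors were classed as promoter where they overlap 1 kb upstream of a protein-coding start site, otherwise as genic or intergenic. Among intra-chromosomal pairs at least 20 kb apart, promoter to promoter pairs made up 1.75% of FGFR1 HiChIP (30142 pairs) and 4.09% of Hi-C (455672 pairs), a log2 ratio of -1.22 (-1.24 to -1.21). Promoter to genic pairs were at -0.74 and promoter to intergenic pairs at -0.50. Intergenic to intergenic pairs made up 29.4% against 19.6%, a log2 ratio of 0.58. The order of the classes was alike at 20 to 500 kb, where promoter to promoter pairs were at -1.16, and at 500 kb or more, where they were at -1.26. In ESC FGFR1 HiChIP over ESC Hi-C, at 20 kb or more, promoter to promoter pairs were at -1.08 and intergenic to intergenic pairs at 0.40. In NCC CTCF HiChIP over NCC Hi-C they were at -0.85 and 0.41.

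With GC weights, promoter to promoter pairs of NCC FGFR1 HiChIP were at -0.46 and intergenic to intergenic pairs at 0.17. Both kept their direction and lost most of their size on the log2 scale. The weighted promoter to promoter ratio was -0.555 in ESC FGFR1 HiChIP and -0.337 in NCC CTCF HiChIP. NCC FGFR1 HiChIP had 15096 promoter anchors covering 54.3 mb, with 12.2 ends per covered kb, and NCC Hi-C 20088 anchors covering 107.2 mb, with 67.1. In intergenic anchors the values were 8.75 and 38.7 ends per covered kb. The promoter anchors were thus fewer and also shorter in FGFR1 HiChIP, with a mean of 3.60 kb against 5.34 kb.

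Around gene starts, the FGFR1 signal was low relative to Hi-C over a wide region and less low at the start itself. Within 1 kb of 20780 protein-coding start sites the log2 ratio was -0.32, and at 30 to 50 kb on either side -0.44, a difference of 0.12. Relative to GC content the values were 0.02 and -0.21, so the direction at the start site turned while the difference grew to 0.23. The 1 kb step at the start site was at -0.16 and the next step downstream at -0.55, below the flank. Whether the rise at the start site is a peak was not tested. The same difference between centre and flank was 0.04 in ESC FGFR1 HiChIP and 0.31 in NCC CTCF HiChIP.

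Around CTCF consensus sites the CTCF antibody served as a check of the measure. NCC CTCF HiChIP over NCC Hi-C was 0.66 higher within 1 kb of 12245 sites than at 30 to 50 kb. The NCC FGFR1 difference was 0.06, and in the step at the site itself FGFR1 HiChIP was at -0.14 with -0.53 and -0.46 in the steps beside it. ESC FGFR1 HiChIP had a difference of 0.10. A peak at CTCF sites was thus resolved for CTCF. For NCC FGFR1 HiChIP the rise was confined to the step at the site, and the steps beside it lay below the -0.41 of the flank. Whether this rise is a peak was not tested.

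At DR5 elements no peak stood out from the steps around it. Within 1 kb of 8418 elements the NCC FGFR1 ratio was -0.06, against -0.14 at 30 to 50 kb, a difference of 0.09, with single 1 kb steps from -0.41 to 0.07. The difference was 0.01 in ESC and 0.10 for NCC CTCF HiChIP. Most of these elements are matches of sequence alone, 18.3% of them in masked repeats, and binding at them was not measured here.

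**Figure D4:**
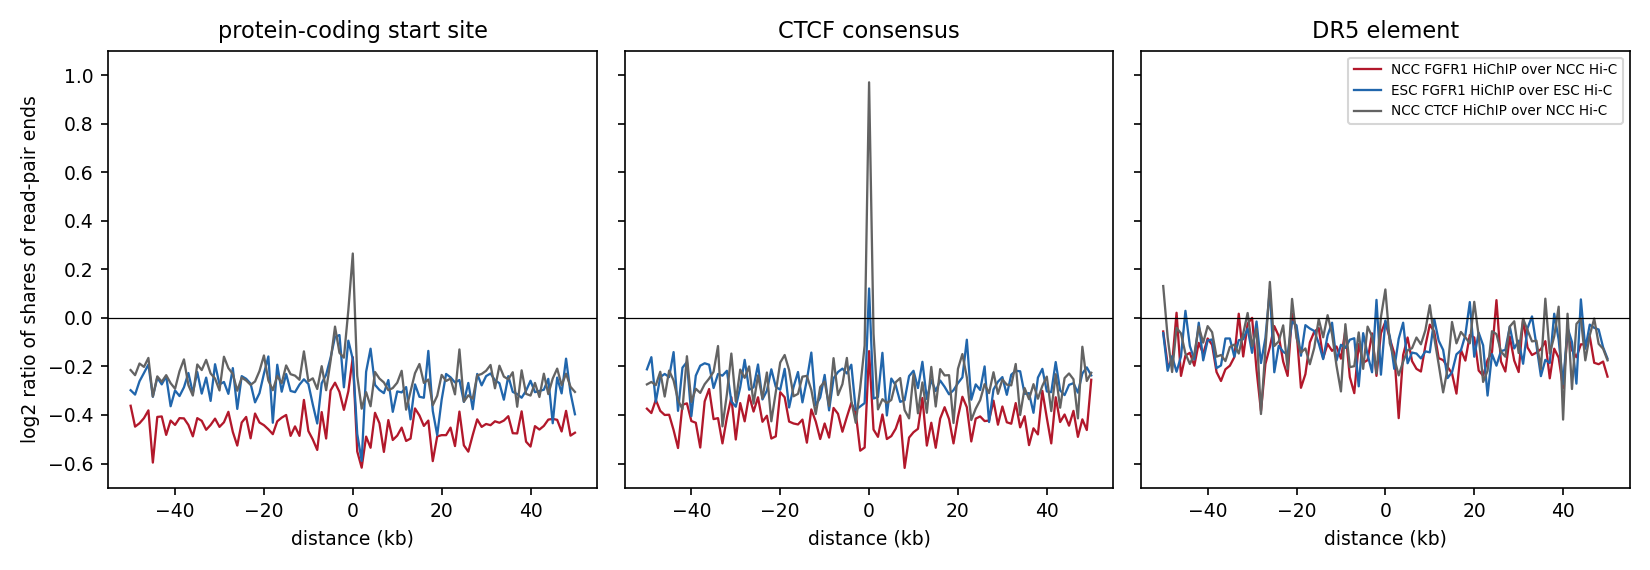
Log2 ratio of the share of read-pair ends (vertical axis) in 1 kb steps by distance in kb (horizontal axis) from protein-coding start sites, CTCF consensus sites and DR5 elements, for NCC FGFR1 HiChIP, ESC FGFR1 HiChIP and NCC CTCF HiChIP over Hi-C of the same cells. CTCF HiChIP peaks at CTCF consensus sites, where NCC FGFR1 HiChIP is at -0.14, and no line has a peak at DR5 elements that exceeds its other steps.

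Genes of retinoic acid signaling lay mostly below the Hi-C level. The share over all 16735 tested protein-coding start sites was 9.22% enriched and 31.9% depleted at 10 kb, with a median log2 ratio of -0.40, and the median relative to GC strata was 0.16, with 17.6% enriched and 20.2% depleted. At 50 kb it was 9.72% enriched and 20.2% depleted among 19615, with a median of -0.33, and relative to GC strata 5.3% and 8.93%, with a median of -0.04. Of 18 tested retinoic acid receptor and metabolism genes, 1 was enriched and 8 depleted at 10 kb, with a median of -0.78. At 50 kb 1 was enriched and 7 depleted, with a median of -0.84. Relative to GC strata, 1 was enriched and none depleted, with a median of -0.22.

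Cyp26a1, the retinoic acid hydroxylase whose 10 kb bin holds both elements shown above, had 82 FGFR1 ends and 1893 Hi-C ends, a log2 ratio of -1.80 (-2.13 to -1.48). The 10 kb bin of ESC was at -2.40. Its neighbour Cyp26c1 had 135 FGFR1 and 0 Hi-C midpoints at 10 kb, and the 50 kb bin that both share had 264 and 2848 ends, a log2 ratio of -0.70. Rarg, a retinoic acid receptor gene, had 184 ends against 3214, a log2 ratio of -1.39, and -0.62 at 50 kb. Rara, another receptor gene, was at -1.10 and at -0.75 at 50 kb. Crabp2, which encodes a retinoic acid carrier, was at -1.90 and -1.28, and Cyp26b1, a further hydroxylase gene, at -1.05 and -1.44. Stra6, the retinol uptake receptor gene, had 0 against 1233, and 206 against 5001 at 50 kb, a log2 ratio of -1.87 where ESC was at 0.41.

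Aldh1a1, which encodes an enzyme of retinoic acid synthesis, was the member enriched at 50 kb. It had 228 FGFR1 and 437 Hi-C ends, a log2 ratio of 1.80 (1.07 relative to its GC stratum), against 0.04 in ESC. The 10 kb bin of its DR5 element was at 1.76, with 72 ends against 141, while the bin of its start site, with 25 against 103, was at 0.69 with an interval that reached 0. The 10 kb bins of the DR5 elements of Rarg and Stra8 were at -1.39 and -1.24, so bins with an element lay on both sides of the Hi-C level. Rarb, the receptor gene best known as a retinoic acid target, could not be compared: its 50 kb bin had 47 FGFR1 ends and 0 Hi-C ends.

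Hox genes, the position-specifying homeobox genes, were near or below the Hi-C level, but at 50 kb mostly above other regions of their GC content. The 39 genes share 13 bins of 50 kb, so neighbours are not separate values. At 10 kb, 2 of 37 tested were enriched and 13 depleted, with a median of -0.56. At this size 9 (24.3%) were enriched and 5 (13.5%) depleted relative to GC strata, against 17.6% and 20.2% over all genes. The median was 0.16, as it was over all genes. At 50 kb, none were enriched and 1, Hoxb13, was depleted, with a median of -0.37. Relative to GC strata 3 were enriched and none depleted, with a median of 0.42.

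The 3 genes above 2-fold relative to GC content were Hoxb3, Hoxb4 and Hoxb5, which share a 50 kb bin with 512 FGFR1 and 3291 Hi-C ends, at 0.05 as a share and 1.05 relative to its GC stratum. The bin beside it, with Hoxb6 to Hoxb9, had 449 and 2980 ends and was at 0.00 and 1.00. In ESC the same bins were at 0.73 and 0.07 relative to their strata. Hoxb1, an early retinoic acid target, had 147 against 858, a log2 ratio of 0.19 (-0.07 to 0.44), and -0.28 at 50 kb. The 10 kb bin of the Hoxb1 element, downstream of the gene, had 91 ends against 349, a log2 ratio of 0.80. Hoxa5 and Hoxa6 share an enriched 10 kb bin (108 against 295, 1.29), but their 50 kb bin was at -0.67. Hoxb2 was at -3.13 and Hoxc9 at -2.48 at 10 kb, against -0.28 and -0.19 at 50 kb, so these single 10 kb values did not hold over the wider bins.

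Hox cofactors and other early retinoic acid targets included both directions. At 10 kb 3 of 15 were enriched and 5 depleted, with a median of -0.34, and at 50 kb 1 of 16 and 3, with a median of -0.27. The medians relative to GC strata were 0.63 and 0.27, with 4 enriched and 2 depleted at 10 kb. Nr2f1, a nuclear receptor gene of neural patterning, had 82 FGFR1 ends and 226 Hi-C ends, a log2 ratio of 1.27 (0.89 to 1.64), and 1.18 at 50 kb with 181 against 532. In ESC the values were -1.14 and -0.82, and CTCF HiChIP of NCC, which shares the Hi-C library, was at 1.27 and 1.21. Pbx2, a TALE cofactor of Hox proteins, was at 2.07 at 10 kb but -0.94 at 50 kb. Meis1 (-0.53 and 0.63) and Meis2 (-0.11 and 0.42), further cofactors, were within 2-fold of Hi-C at both sizes. Gbx2, a homeobox gene of the hindbrain border, was at -2.75 and -1.26, and the caudal genes Cdx1 and Cdx2 were at -1.77 and -1.08 at 10 kb, with -0.97 and -0.56 at 50 kb.

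Ligands and receptors of the FGF family lay mostly below the Hi-C level. At 10 kb 1 of 23 was enriched and 12 were depleted, with a median of -1.10, and at 50 kb 3 of 25 and 9, with a median of -0.72. The median relative to GC strata was -0.40 at 10 kb, and at 50 kb none were enriched and 3 depleted, with a median of -0.03. Fgf4, a ligand of pluripotent cells, had 11 FGFR1 ends and 474 Hi-C ends, a log2 ratio of -2.70. It shares its 50 kb bin with Fgf3, at -1.99 (113 against 2982). Fgf8, a ligand of early neural patterning, had 27 against 821, a log2 ratio of -2.19, and -2.35 at 50 kb. Fgf15, the mouse hormone-like ligand, had 26 against 1583, a log2 ratio of -3.19, and -2.28 at 50 kb. Fgf8 and Fgf15 were 2 of the 3 genes depleted relative to GC content, at -1.36 and -1.29, and the third was Fgf10, at -1.01 with 70 against 338 ends. In ESC, Fgf8 and Fgf15 were at 0.11 and -0.16 relative to their strata.

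Fgfr1 itself had 95 FGFR1 HiChIP ends and 1174 Hi-C ends, a log2 ratio of -0.89 (-1.21 to -0.59), and -0.68 at 50 kb, or -0.04 relative to GC. The Fgfr3 start-site bin was at -1.56 and that of Fgfrl1, a receptor without a kinase domain, at -2.72, with -1.01 and -1.03 at 50 kb. Fgf5, Fgf12 and Fgf20 were enriched at 50 kb, at 1.04, 1.02 and 1.56, and none of them passed 2-fold relative to GC. Fgf2, the ligand found in the nucleus with FGFR1, had 172 against 657 ends at 50 kb, a log2 ratio of 0.80, against -1.37 in ESC. Its 10 kb bin, with 20 against 43, was not tested.

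Few genes of nuclear FGFR1 partners and Nr4a receptors passed 2-fold, and their median depended on the bin size. Of 11 tested at 10 kb, none were enriched and 1, Rara, was depleted, with a median of -0.07. At 50 kb 1 of 12, Nr4a1, was depleted and none enriched, with a median of -0.57, below the -0.33 of all genes. Against GC strata none passed in either direction at 50 kb, with a median of 0.08. Crebbp, which encodes CBP, had 65 ends against 353, a log2 ratio of 0.29 (-0.11 to 0.68), and -0.42 at 50 kb. The log2 ratio was -0.91 at Nr4a1 (54 against 674) and 0.09 at Nr4a2 (19 against 119), genes of orphan nuclear receptors, with -1.22 and 0.00 at 50 kb. Th, which encodes tyrosine hydroxylase and is a target of Nr4a2, had 80 against 430, a log2 ratio of 0.31 (-0.05 to 0.66), and -0.86 at 50 kb. At the genes of CTCF and cohesin, 1 of 11 was enriched, Esco2, and 1 depleted, Esco1, at 10 kb, with a median of 0.15. At 50 kb none was called and the median was -0.14, and relative to GC strata 1 was depleted, with a median of -0.28. Ctcf itself had 59 against 703, a log2 ratio of -0.84, with -0.16 at 50 kb.

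Pluripotency genes had medians above those of all genes, more so relative to GC strata, and not in NCC FGFR1 HiChIP alone. The 50 kb median relative to GC strata was 0.24 in ESC FGFR1 HiChIP and 0.31 in NCC CTCF HiChIP. In NCC FGFR1 HiChIP at 10 kb, 2 of 22 (9.09%) were enriched and 6 (27.3%) depleted, with a median of -0.15. These shares are near the 9.22% and 31.9% over all genes. At 50 kb 1 was enriched and 4 depleted, with a median of -0.26. Against their GC strata, 4 were enriched and 1 depleted at 10 kb, with a median of 0.49, and 2 and none at 50 kb, with a median of 0.18. Pou5f1, which encodes Oct4, had 47 against 881 ends, a log2 ratio of -1.49 (-1.95 to -1.07), and -1.10 at 50 kb, or -0.10 relative to GC. Nanog had 83 against 482, a log2 ratio of 0.20 (-0.16 to 0.54), and -0.25 at 50 kb. Sox2 had 38 against 247, a log2 ratio of 0.03 (-0.50 to 0.53), and 0.19 at 50 kb. Zfp42, which encodes the ESC marker Rex1, was the enriched member at both sizes, with 53 against 52 ends (2.76) and 101 against 255 (1.40). ESC were at 1.49 and 0.73 there. Klf2, a pluripotency transcription factor gene, was at -2.09 and -1.36.

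Among genes of neural induction, 2 of 22 were enriched and 6 depleted at 10 kb, with a median of -0.35, and 2 of 25 and 5 at 50 kb, with a median of -0.21. Against their GC strata the medians were above 0, at 0.53 with 5 (22.7%) enriched and 1 (4.55%) depleted at 10 kb. Over all genes these shares were 17.6% and 20.2%. At 50 kb the median was 0.36, with 1 enriched and 2 depleted. The medians relative to GC strata were higher in NCC CTCF HiChIP, at 0.815 and 0.411, and lower in ESC FGFR1 HiChIP, at 0.301 and 0.070. Hes5, a Notch target, had 118 against 138 ends, a log2 ratio of 2.51, but 317 against 4564 and -1.11 at 50 kb. Neurog2, a proneural factor gene, had 58 against 117 ends (1.72) and 0.49 at 50 kb. Elavl4 and Cdh2, genes of neuronal RNA binding and cell adhesion, were the members enriched at 50 kb, at 1.97 and 1.38. Pax6 was at -0.80 (49 against 567) and Sox1 at -0.14 (89 against 652), with -0.64 and -0.21 at 50 kb. Elavl3 was depleted at both sizes, at -2.43 and -1.30.

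Very long neural genes, with a median GC content of 39.9% in their 50 kb bins against 44.9% over all genes, had the highest median of the 9 lists plotted for 50 kb bins. At 50 kb 8 of 18 were enriched and 2 depleted, with a median of 0.86, and relative to GC strata 5 and 3, with a median of 0.39. Lsamp, a neuronal adhesion gene, had 109 FGFR1 ends and 38 Hi-C ends, a log2 ratio of 4.25 (2.95 relative to GC). The synapse gene Nrxn3 was at 1.85 (115 against 212), and Dlg2, a synaptic scaffold gene, was just under the threshold at 1.00 (245 against 816). Dab1, of the reelin pathway, was at -3.13 with 14 ends against 816, and Magi2 at -1.59 with 27 against 542. ESC were at 0.23 at Dab1 and 1.51 at Magi2.

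**Figure D5:**
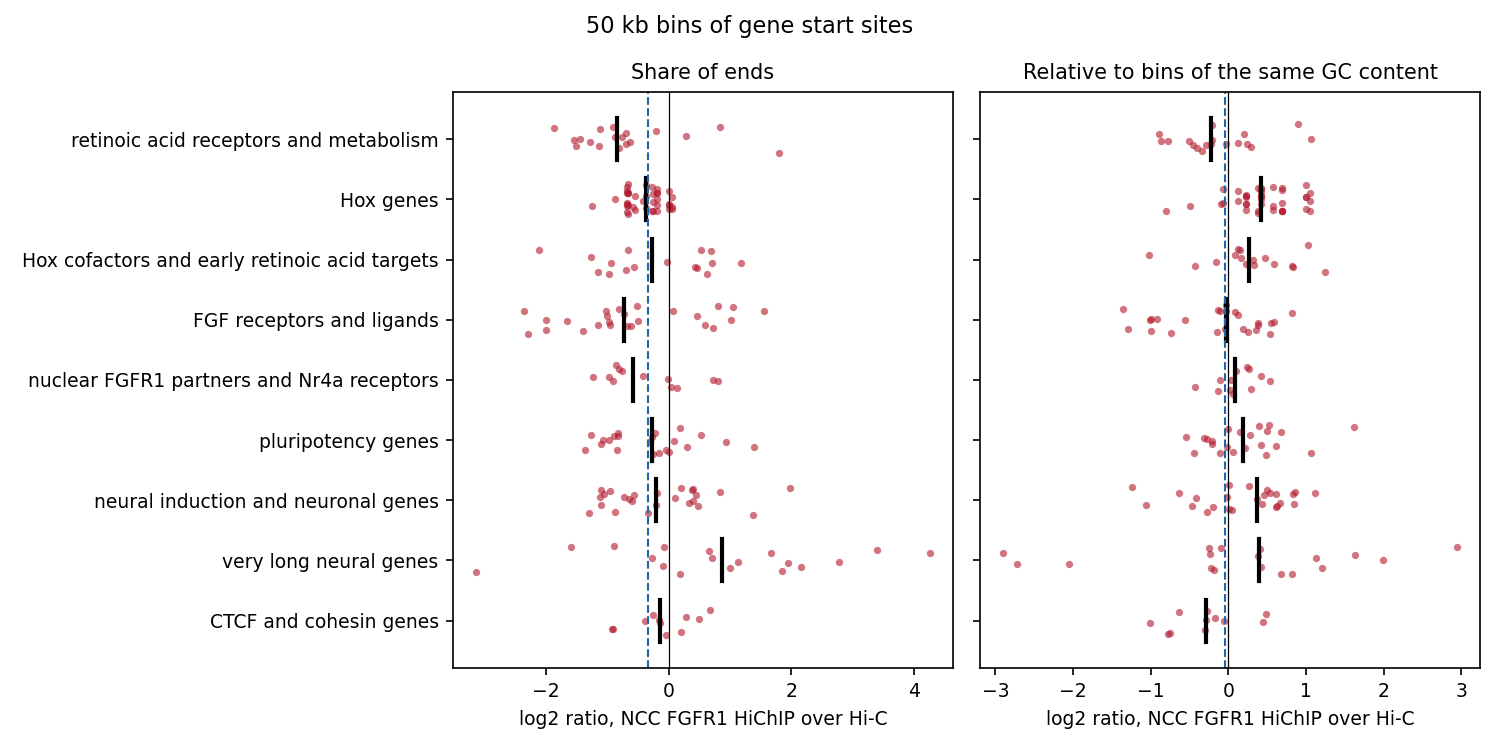
Log2 ratio, NCC FGFR1 HiChIP over Hi-C (horizontal axis), of the 50 kb bin of each start site in 9 gene lists (rows), as a share of ends (left) and relative to bins of the same GC content (right). Points are genes, scattered at random within a row; black bars are medians and the dashed line the median over all protein-coding genes (-0.33 and -0.04). Very long neural genes have the highest median on the left, and the Hox genes that on the right.

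The large gene families outside these lists had ratios on both sides of Hi-C. Of 941 olfactory receptor genes tested at 50 kb, in AT-rich clusters, 479 (50.9%) were enriched and 38 (4.04%) depleted, with a median of 1.03. Over all genes these shares were 9.72% and 20.2%. The 941 genes lie in 479 bins, so neighbours are not separate values. Relative to GC strata 20.9% were enriched and 17.4% depleted, against 5.3% and 8.93% over all genes, with a median of -0.07. Vomeronasal receptor genes, 150 in 118 bins, had medians of 0.80 and -0.12, with 22% enriched and 24% depleted relative to GC strata. Ribosomal protein genes were enriched in 1 (1.32%) and depleted in 21 (27.6%) of 76, with medians of -0.69 and -0.01. Clustered protocadherin genes, 54 genes in 13 bins, lie at a median GC content of 41.7% and had a median of -0.27, and relative to GC 1 was enriched and 13 depleted, with a median of -0.55. Histone genes, 67 in 16 bins at a GC content of 43%, were higher, with medians of 0.16 and 0.46. Genes named Zfp, at 43.7%, had medians of -0.05 and 0.04, so the families did not all follow the order of GC content.

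Chromosomes followed the same axis. The log2 ratio of the share of ends was highest on chromosome 3 (0.47, with a GC content of 40.5%) and lowest on chromosome 11 (-0.37, with 43.8%), and relative to GC strata 0.23 and -0.21. The last 10 mb of the autosomes, the ends far from the centromere, held 8.97% of FGFR1 ends and 11.8% of Hi-C ends, a log2 ratio of -0.40, and -0.15 relative to GC. The first 10 mb, next to the centromere, were at 0.13 and 0.05. In ESC FGFR1 HiChIP, chromosomes 3 and 11 were at 0.31 and -0.24 and the last 10 mb at -0.26. In NCC CTCF HiChIP they were at 0.37, -0.23 and -0.30, so the directions were shared by the other comparisons.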

How the data were processed

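Per the labels and the paper's methods, the authors aligned Hi-C and HiChIP reads to mm10 with HiC-Pro, removed duplicates, called anchors separately in each library with hichipper from all reads, and merged replicates. Each deposited value is a count, the number of read pairs joining 2 anchors, without normalization or a q filter. Anchor ends were checked to fall on GATC sites of GRCm38. From these counts, shares of autosomal read pairs and ends were computed with Python 3.11.15, numpy 2.4.6, pandas 2.3.3 and scipy 1.17.1, with exact (Clopper-Pearson) 95% intervals for ratios. Depth was 3177422 FGFR1 and 21142644 Hi-C read pairs. Bins needed 100 ends. Named genes were fixed genes, list members past 2-fold and the start sites and bins with the most extreme interval bounds, described by example or count. The values of some of these genes are not reported here. Members and lists were chosen with earlier results of these data known. Bins of 500 kb and all GC strata and weights were added after the data were seen. Steps were tested on simulated data. No library was left out, and the ESC CTCF HiChIP library was not used.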

Additional observations from a re-analysis of the deposited data

Results flagged for a closer look

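The FGFR1 HiChIP over Hi-C ratio had opposite signs in NCC and ESC, with intervals clear of 0, in 1 distance class and 4 of the 50 kb start-site bins given above. The 200 to 500 kb class had a log2 ratio of 0.019 in NCC and -0.016 in ESC, values close to 0, and the difference was not tested. The 50 kb bin of the Fgf2 start site was at 0.801 in NCC (172 against 657 ends) and -1.37 in ESC. Nr2f1 was at 1.179 and -0.82, Stra6 at -1.867 and 0.41, and Magi2 at -1.593 and 1.51. None of these differences was tested. Outside the autosomes, which no comparison above uses, the share in FGFR1 HiChIP was above that in Hi-C. Read pairs with an end on chromosome X made up 0.8224% of NCC FGFR1 HiChIP and 0.4027% of NCC Hi-C, 0.633% and 0.491% in ESC, and 0.664% of NCC CTCF HiChIP. Read pairs with an end on mitochondrial DNA made up 0.7051% of NCC FGFR1 HiChIP and 0.133% of NCC Hi-C, 0.443% and 0.120% in ESC, and 0.598% of NCC CTCF HiChIP.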

How the results depend on the processing

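No paired analysis was possible because the replicates were merged in the deposited counts, and no replicate could be left out for the same reason. The cause of the changes below was not tested. With a score of at least 2, enriched 10 kb bins were 10913 in place of 21934, and the log2 ratio was 0.380 inside a single anchor, -0.756 at 20 to 200 kb, -1.100 at 500 kb or more, 0.980 for inter-chromosomal, -0.783 for promoter to promoter, 0.115 for genic to genic, -0.072 for genic to intergenic and 0.590 for intergenic to intergenic pairs, so that 4 of them turned direction. With at least 50 ends, 39504 of 168142 tested 10 kb bins were enriched and 50859 depleted. With at least 200 these were 6856 and 30761 of 89124, and with no minimum 71243 and 56040 of 208278. Enriched bins thus outnumbered depleted ones with no minimum, the reverse of the main setting. At 1.5-fold 34130 were enriched and 53473 depleted. From inter-chromosomal pairs these were 56 and 2319, and from intra-chromosomal pairs at least 20 kb apart 7470 and 31865. Depleted bins were 67556 at 5 kb and 20613 where both libraries had an anchor midpoint. At 50 kb there were 11337 enriched and 5197 depleted bins, and 5727 and 4901 relative to GC strata. At 500 kb there were 1386 and 159, and 403 and 74 relative to GC strata. With Hi-C pairs only on anchors that overlap an FGFR1 anchor, there were 11226 enriched and 25848 depleted bins and 763 enriched start sites, and the log2 ratios were -0.581 inside an anchor, -0.069 at 20 to 200 kb, 0.364 at 500 kb or more and 0.212 for inter-chromosomal pairs. With GC weights these 4 were -0.309, -0.015, 0.156 and 0.167, promoter to promoter pairs -0.455 and intergenic pairs 0.171. Without pairs inside a single anchor the log2 ratio was -0.173 at 20 to 200 kb, 0.189 at 500 kb or more, 0.071 for inter-chromosomal pairs, 0.492 on chromosome 3, -0.385 on chromosome 11 and -0.371 within 1 kb of start sites. Without the 1% of bins with the most Hi-C ends the 3 distances were at -0.106, 0.222 and 0.106. Over all distances between different anchors, promoter to promoter pairs were at -1.193 and intergenic pairs at 0.531. Relative to GC strata, chromosomes 3 and 11 were at 0.230 and -0.215, the start sites at 0.017, which turned direction, 2946 start sites were enriched and 3385 depleted at 10 kb, and 1751 were depleted at 50 kb. Without the same 1% of bins, the difference between centre and flank in FGFR1 HiChIP was 0.09 at start sites, 0.04 at CTCF sites and 0.11 at DR5 elements. GC strata, weights, 500 kb bins, the classes by GC content and this last setting, and the division of ends by overlapping bases, were chosen after seeing the data. At this depth a 10 kb bin had a median of 31 FGFR1 ends, which limits single bins more than shares of the library.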
